A study of Mus musculus with 6 samples.

Results

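The genes described here are 10 that mark the melanocyte lineage or its loss: the regulators MITF (ENSG00000187098) and SOX10 (ENSG00000100146), the pigment genes TYR (ENSG00000077498), TYRP1 (ENSG00000107165), DCT (ENSG00000080166), PMEL (ENSG00000185664) and MLANA (ENSG00000120215), and the dedifferentiation genes AXL (ENSG00000167601), NGFR (ENSG00000064300) and SOX9 (ENSG00000125398). They were chosen by identifier, and all 10 were among the 62492 genes of the deposited table. RNA sequencing was done on A375, an established human melanoma cell line, after lentiviral delivery of Cas9 and a guide RNA. The ABCE1 group carried guides against ABCE1, which separates ribosomal subunits after termination, and the YAE1 group carried guides against YAE1, an adaptor that helps ABCE1 to receive its iron-sulfur cluster. The control group carried guides against LacZ or Luciferase, which have no target in these cells, and is labelled wild type. All 3 groups shared the vector, selection with 10 µg/mL puromycin and collection 7 days after selection. Each had 2 libraries. Nothing in the labels tells if these 2 are separate cultures, separate guides or clones. Every p-value below therefore measures the spread between libraries alone, and that spread may be technical.

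Melanocytes depend on SOX10, a neural crest transcription factor, which switches on MITF, the central transcription factor of the lineage. MITF in turn drives the enzymes and structural proteins of the melanosome, the organelle in which melanin is made. Melanoma cells can lose this programme. In cells with little MITF, the receptor tyrosine kinase AXL, the neurotrophin receptor NGFR or the transcription factor SOX9 is often raised, a state linked to drug tolerance and invasion.

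Totals worked out from the steps in the deposited values lay between 15713011 and 18399718 fragments. Across 12578 genes, which are not independent replicates, Pearson's r was 0.992 to 0.994 within a group and 0.942 to 0.98 between groups. Levels are given in FPKM (fragments per kilobase of gene model, scaled to the size of the library), as deposited. Changes are log2 differences on the FPKM + 1 scale with their standard error (SE), from limma with Benjamini-Hochberg adjustment over the 12578 genes averaging 1 FPKM or more, called at an adjusted p under 0.05. Relative to the controls the median gene rose by 0.098 with ABCE1 guides and by 0.096 with YAE1 guides on that scale, so member changes are to be read against these shifts. The ABCE1 and YAE1 comparisons share both control libraries.

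In every group the lineage regulators and 2 of the dedifferentiation genes were expressed, while the pigment genes were low. SOX10 was highest, at 64.8 to 90.8 FPKM over the 6 libraries, and its mean lay above that of 96.5% of the 12578 genes. AXL followed at 32.4 to 40.9 FPKM (above 91.1% of genes), then NGFR at 13.3 to 17.7 FPKM (above 76.1%) and MITF at 9.58 to 14.2 FPKM (above 70.1%). DCT ranged from 0.561 to 3.25 FPKM. The other 5 members stayed under 1 FPKM in every library: MLANA at 0.298 to 0.967, PMEL at 0.265 to 0.914, SOX9 at 0.0691 to 0.59, TYRP1 at 0.0727 to 0.221 and TYR at 0 to 0.0573 FPKM. Of the lineage's defining markers, SOX10 and MITF were thus present and TYR was at most 2.5 fragments in a library. In this bulk RNA, a gene carried by few cells and a gene low in all cells cannot be told apart.

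The order of levels changed at one place among the abundant members. In the ABCE1 libraries and in the controls the order was SOX10, AXL, NGFR, MITF, with no overlap between neighbours. With YAE1 guides MITF (14.2 and 13.9 FPKM) and NGFR (14.5 and 13.3 FPKM) overlapped. Among the low members, DCT stood clear of the next gene in both knockouts, whereas in the controls its range overlapped that of MLANA.

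MITF and DCT rose with ABCE1 guides while SOX10 fell. Of the 5 members averaging 1 FPKM or more, 2 were called higher and 1 lower, against 37.5% higher and 20.4% lower of all genes tested. DCT passed this filter only through the knockout libraries, so the count is no support for a shared change of these genes. With YAE1 guides 3 of the 5 were called higher (MITF, SOX10 and DCT) and none lower, against 34.2% and 17.6% of all genes. No further member of the 5 reached an unadjusted p under 0.05 in limma in either comparison, and voom on fragment numbers also called none lower with YAE1 guides among these 5. Calls are thus common among genes in general. Their split depends on scaling: 64.8% of all calls with ABCE1 guides were higher (45.5% after each library was centred on its median gene), and 66.0% with YAE1 guides (49.1% after centring).

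MITF was measured at 12.4 and 14.1 FPKM with ABCE1 guides, 14.2 and 13.9 FPKM with YAE1 guides, and 9.58 and 10.2 FPKM in the controls. All 4 knockout libraries were above both controls, and the knockouts overlapped each other. The means were 13.2 ± 1.20 FPKM (ABCE1) and 14.1 ± 0.237 FPKM (YAE1), against 9.91 ± 0.461 FPKM in the controls (SD, n = 2 each). These are ratios of 1.34 and 1.42 to the control mean. On the log2 scale MITF rose by 0.38 ± 0.07 with ABCE1 guides (SE, limma adjusted p = 0.0035) and by 0.47 ± 0.07 with YAE1 guides (SE, limma adjusted p = 0.0019). A change at least that high was found in 24.8% of all genes tested with ABCE1 guides and in 15.2% with YAE1 guides. The direct difference, YAE1 minus ABCE1, was 0.09 with a 95% interval of -0.08 to 0.25 (limma adjusted p = 0.38). After each library was centred on its median gene, MITF was still called, with changes of 0.24 (limma adjusted p = 0.023) and 0.37 (limma adjusted p = 0.0053). The table sums all transcripts of the gene, so the melanocyte isoform was not separated from the others.

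SOX10 was measured at 70.7 and 64.8 FPKM with ABCE1 guides, 89.6 and 90.8 FPKM with YAE1 guides, and 78.5 and 75.6 FPKM in the controls. The 3 groups did not overlap: the ABCE1 libraries were lowest, the controls in between and the YAE1 libraries highest. Each value rested on at least 4537.5 fragments, with a counting error of at most 1.48% (numbers come in steps of 0.5 fragments). SOX10 fell by 0.18 ± 0.05 with ABCE1 guides (SE, limma adjusted p = 0.02) and rose by 0.22 ± 0.05 with YAE1 guides (SE, limma adjusted p = 0.011). The direct difference, YAE1 minus ABCE1, was 0.41 ± 0.05 (SE, 95% interval 0.29 to 0.53, limma adjusted p = 0.0036), and 4.71% of all genes had a difference at least that high. The mean was 90.2 ± 0.886 FPKM with YAE1 guides and 67.7 ± 4.12 FPKM with ABCE1 guides (SD, n = 2 each), a ratio of 1.33.

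The difference in SOX10 between the knockouts was firmer than either change from control. It remained called in all 16 alternatives, at 0.35 to 0.47. Several of these, such as leaving out a control library, could not move the difference itself and altered only its p-value. Against control, the fall with ABCE1 guides kept its call in 11 of 16 alternatives and the rise with YAE1 guides in 13 of 16. After centring on the median gene the fall was larger (-0.32, limma adjusted p = 0.0022). The fall with ABCE1 guides lost its call without control replicate 1 (-0.16, limma adjusted p = 0.12), without control replicate 2 (-0.21, limma adjusted p = 0.052), without ABCE1 replicate 2 (-0.12, limma adjusted p = 0.13), with quantile normalization (-0.10, limma adjusted p = 0.13) and without the filter on low genes (0.072 as limma adjusted p). The rise with YAE1 guides lost its call without control replicate 2 (0.20, limma adjusted p = 0.072), after centring on the median gene (0.13, limma adjusted p = 0.089) and without the filter (0.052 as limma adjusted p).

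DCT, the dopachrome tautomerase of melanin synthesis, had the largest change among the 5 members tested. It was measured at 2.92 and 3.25 FPKM with ABCE1 guides, 2.37 and 2.91 FPKM with YAE1 guides, and 0.836 and 0.561 FPKM in the controls. Every knockout library was at least 2.37 FPKM and both controls were under 1 FPKM. The numbers of fragments were 346 and 434 with ABCE1 guides, 300 and 374.5 with YAE1 guides, and 116 and 74.5 in the controls. The mean with ABCE1 guides was 4.42 times the control mean, and 3.69 times without control replicate 2 and 5.50 times without control replicate 1. With YAE1 guides the ratio was 3.78, and 3.16 to 4.70 with either control left out.

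On the FPKM + 1 scale, which understates the change of a gene at this level, DCT rose by 1.27 ± 0.12 with ABCE1 guides (SE, limma adjusted p = 0.00022). With YAE1 guides it rose by 1.10 ± 0.12 (SE, limma adjusted p = 0.00057). Since DCT passed the filter through the knockout libraries, the fit with no filter bears on it more, and DCT was called there too (limma adjusted p = 0.0036 with ABCE1 guides and 0.0075 with YAE1 guides). With a pseudocount of 0.1 the changes were 2.02 and 1.79, and with voom on fragment numbers 2.16 and 1.93. Of all genes tested with the filter, 2.35% had a change at least as high with ABCE1 guides and 1.57% with YAE1 guides on the FPKM + 1 scale. With voom and no filter, which keeps low genes on their own scale, these shares were 3.90% and 3.19%. Between the knockouts the difference, YAE1 minus ABCE1, was -0.17 with a 95% interval of -0.46 to 0.12 (limma adjusted p = 0.31).

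Among the other pigment genes, PMEL lay above the controls in all 4 knockout libraries, TYRP1 stood highest with ABCE1 guides, MLANA was lowest with YAE1 guides and TYR was barely detected. These 4 genes and SOX9 were under the filter and are described by level and fragment number. Their ratios carry 95% intervals from exact Poisson counting, which cover counting error only and take the fragment numbers as they stand. Adjusted p-values for them come from voom on fragment numbers with no filter on low genes, an alternative chosen after seeing the data. Of all 38267 genes in that fit, 17.8% were called higher and 7.33% lower with ABCE1 guides, 14.4% and 6.40% with YAE1 guides against control, and 4.79% and 7.18% with YAE1 against ABCE1 guides.

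PMEL, which builds the fibrils of the melanosome, was measured at 0.914 and 0.754 FPKM with ABCE1 guides, 0.61 and 0.789 FPKM with YAE1 guides, and 0.265 and 0.291 FPKM in the controls. All 4 knockout libraries were above both controls. The fragments behind these values were 56 and 52 (ABCE1), 40 and 52.5 (YAE1), and 19 and 20 (control). Relative to the controls the fragment ratio was 2.99 with ABCE1 guides (95% interval 2.05 to 4.42, voom adjusted p = 0.00092) and 2.52 with YAE1 guides (1.72 to 3.77, voom adjusted p = 0.0054). In limma on FPKM without the filter PMEL passed with ABCE1 guides (adjusted p = 0.036) and missed with YAE1 guides (adjusted p = 0.086). The knockouts did not separate, with a ratio of YAE1 to ABCE1 of 0.844 (0.633 to 1.12).

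MLANA, the melanosomal protein also known as the T-cell antigen MART-1, did not follow PMEL and DCT. It was measured at 0.967 and 0.623 FPKM with ABCE1 guides, 0.298 and 0.421 FPKM with YAE1 guides, and 0.653 and 0.786 FPKM in the controls. The ABCE1 libraries overlapped the controls, while both YAE1 libraries were below every other library. The YAE1 libraries held 15 and 21.5 fragments and the controls 36 and 41.5, a ratio of 0.501 (0.328 to 0.751), which missed the threshold (voom adjusted p = 0.052). Against the ABCE1 libraries (45.5 and 33 fragments) the ratio was 0.458 (0.301 to 0.687), at the edge of the threshold (voom adjusted p = 0.0496), and limma on FPKM with no filter did not call it (adjusted p = 0.20).

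TYRP1, a melanosomal enzyme related to tyrosinase, was measured at 0.221 and 0.197 FPKM with ABCE1 guides, 0.0875 and 0.118 FPKM with YAE1 guides, and 0.0727 and 0.0836 FPKM in the controls. Both ABCE1 libraries held 13 fragments, against 5.5 and 7.5 in the YAE1 libraries and 5 and 5.5 in the controls. The ratio of ABCE1 to control was 2.67 (1.26 to 6.09, voom adjusted p = 0.047), and that of YAE1 to control was 1.32 (0.539 to 3.30, voom adjusted p = 0.69). In limma on FPKM with no filter the first of these missed the threshold (adjusted p = 0.059). TYR, tyrosinase, the rate-limiting enzyme of melanin synthesis, had 0 and 0.5 fragments with ABCE1 guides, 2.5 and 0 with YAE1 guides, and 1 and 1 in the controls. A count of 0 allows up to 3 fragments, so no difference in TYR was detectable at this depth.

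DCT made up most of the pigment gene signal in the knockouts. Its share of the summed FPKM of the 5 pigment genes was 58.2% and 67.3% with ABCE1 guides, 69.2% and 68.7% with YAE1 guides, and 45.3% and 32.2% in the controls. The sum itself was 5.02 and 4.84 FPKM with ABCE1 guides, 3.42 and 4.24 FPKM with YAE1 guides, and 1.85 and 1.74 FPKM in the controls. Without DCT the sum of the remaining 4 was 2.10 and 1.58 FPKM with ABCE1 guides, 1.05 and 1.33 FPKM with YAE1 guides, and 1.01 and 1.18 FPKM in the controls. The sum without DCT was thus higher than in the controls in the ABCE1 libraries and overlapped the controls with YAE1 guides.

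AXL and NGFR, the 2 dedifferentiation markers that A375 expressed strongly, were not called against control in either knockout. AXL, a receptor tyrosine kinase, was measured at 40.9 and 39.6 FPKM with ABCE1 guides, 36.3 and 32.4 FPKM with YAE1 guides, and 34.6 and 38.3 FPKM in the controls. Both ABCE1 libraries were above both controls, while the YAE1 libraries overlapped them. The change was 0.14 with ABCE1 guides (95% interval -0.03 to 0.31, limma adjusted p = 0.13) and -0.08 with YAE1 guides (-0.26 to 0.09, limma adjusted p = 0.35). After each library was centred on its median gene, these changes were 0.0026 (limma adjusted p = 0.98) and -0.18 (limma adjusted p = 0.084). Directly compared, the YAE1 libraries were lower in AXL than the ABCE1 libraries, by a log2 difference of -0.23 ± 0.07 (SE, limma adjusted p = 0.0499). That call sat at the threshold and was lost in 12 of 16 alternatives, among them leaving out any library other than YAE1 replicate 1 (limma adjusted p up to 0.19).

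NGFR, a neurotrophin receptor of neural crest cells, was measured at 16.8 and 15.9 FPKM with ABCE1 guides, 14.5 and 13.3 FPKM with YAE1 guides, and 14.6 and 17.7 FPKM in the controls. The ABCE1 libraries lay within the range of the controls, and the YAE1 libraries lay just below it. The change with ABCE1 guides was 0.02 (95% interval -0.20 to 0.24, limma adjusted p = 0.88), and its sign turned after centring (-0.12), with quantile normalization (-0.0735), without control replicate 1 (-0.11) and without ABCE1 replicate 1 (-0.02). The change with YAE1 guides was -0.20 (95% interval -0.42 to 0.03, limma adjusted p = 0.12). It was called after centring on the median gene (-0.29, limma adjusted p = 0.038) and without control replicate 1 (-0.33, limma adjusted p = 0.025). The difference between the knockouts was -0.21 (-0.44 to 0.01, limma adjusted p = 0.12).

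SOX9, a transcription factor related to SOX10, was low in all libraries and lay above the controls in all 4 knockout libraries. It was measured at 0.534 and 0.59 FPKM with ABCE1 guides, 0.499 and 0.477 FPKM with YAE1 guides, and 0.0691 and 0.26 FPKM in the controls. The fragments were 33 and 41 (ABCE1), 33 and 32 (YAE1), and 5 and 18 (control), so the controls differed between themselves by more than the knockouts did. Relative to the controls the fragment ratio was 3.47 with ABCE1 guides (95% interval 2.15 to 5.81, voom adjusted p = 0.0032) and 3.00 with YAE1 guides (1.84 to 5.06, voom adjusted p = 0.0093). One control decided the size: the ratio of mean FPKM with ABCE1 guides was 2.16 without control replicate 1 and 8.13 without control replicate 2, and with YAE1 guides 1.88 and 7.06. In limma on FPKM with no filter neither comparison passed (adjusted p = 0.066 and 0.12).

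Set directly against each other, the knockouts differed in SOX10 among the 5 members tested, and in AXL by a call that was lost in 12 of 16 alternatives. There 1 member was called higher with YAE1 guides and 1 lower, against 15.3% and 18.7% of all genes tested. Of all calls in that comparison 45.1% were higher, and 56.0% after centring. Over all 10 members and without a test, the 2 libraries of each group did not overlap for 1 member that was higher and 6 that were lower with YAE1 than with ABCE1 guides, against 19.0% and 23.8% of the 38269 genes above 0 in any library. The 6 were TYRP1, DCT, MLANA, AXL, NGFR and SOX9. Against the controls, 6 members were higher and 2 lower without overlap in each knockout, where all genes gave 33.4% and 16.9% with ABCE1 guides and 31.6% and 16.0% with YAE1 guides. Those higher with ABCE1 guides were MITF, TYRP1, DCT, PMEL, AXL and SOX9, and those lower were SOX10 and TYR. Those higher with YAE1 guides were MITF, SOX10, TYRP1, DCT, PMEL and SOX9, and those lower were MLANA and NGFR. Some of these separations rest on few fragments. TYR held 0 and 0.5 with ABCE1 guides against 1 and 1 in the controls. TYRP1 held 5.5 and 7.5 with YAE1 guides against 5 and 5.5 in the controls. The shares for all genes are also a low yardstick. Single libraries had only 27881 to 30047 of the 38269 genes above 0, and libraries tied at 0 cannot separate. Shares among genes above 0 in all 6 libraries were not computed.

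As a list, in limma with no filter, the 10 genes had a median log2 change of 0.153 with ABCE1 guides and 0.128 with YAE1 guides. The medians of all 38269 genes, of which 12578 averaged 1 FPKM or more, were 0.023 and 0.013. Over those 12578 genes, which include 5 of the 10 members, the medians were 0.098 and 0.096. For YAE1 minus ABCE1 the median was -0.122 over the 10 genes and -0.006 over all genes. In voom with no filter the members' medians were 0.283 with ABCE1 guides, 0.294 with YAE1 guides and -0.229 between the knockouts, where all genes had 0.184, 0.098 and -0.038. In limma with no filter 3 members were called higher and 0 lower with ABCE1 guides (DCT, MITF and PMEL), against 12.5% and 5.86% of all genes. With YAE1 guides 2 were called higher (DCT and MITF) and 0 lower, against 8.82% and 4.44%. Between the knockouts 1 was called higher (SOX10) and 0 lower, against 2.37% and 3.09%. At an unadjusted p under 0.05 in limma, 5 members were higher and 1 lower with ABCE1 guides, against 20% and 9.40% of all genes. With YAE1 guides 5 were higher and 0 lower, against 16.9% and 8.60%. Between the knockouts 1 was higher and 3 were lower with YAE1 guides, against 8.79% and 12.1%. In the fit of the 12578 genes averaging 1 FPKM or more, the shares at that p were larger. They were 40.2% higher and 22.5% lower with ABCE1 guides, 38.3% and 20% with YAE1 guides, and 21.3% and 24.6% between the knockouts. With voom and no filter 5 were called higher and 1 lower (SOX10) with ABCE1 guides, against 17.8% and 7.33% of all genes. With YAE1 guides that fit called 5 higher and 0 lower, against 14.4% and 6.40%. Between the knockouts it called 1 higher (SOX10) and 2 lower (MLANA and AXL), against 4.79% and 7.18%. At an unadjusted p under 0.05 in voom, 6 were higher and 1 lower with ABCE1 guides, against 23.5% and 9.79%. For YAE1 guides these were 5 and 2, against 20.5% and 9.31%, and between the knockouts 1 and 4, against 9.7% and 13.2%. Voom over only the 12578 genes averaging 1 FPKM or more called larger shares. There 4987 genes were higher and 2724 lower with ABCE1 guides, 4669 and 2398 with YAE1 guides, and 2230 and 2786 between the knockouts. At an unadjusted p under 0.05 the shares there were 41.5% and 23.2%, 39.7% and 20.9%, and 22.2% and 26.1%.

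Within each library, ratios of FPKM between members are free of the library's scaling. MITF stood at 0.303 and 0.356 of AXL with ABCE1 guides, 0.393 and 0.430 with YAE1 guides, and 0.277 and 0.267 in the controls. The 3 groups did not overlap, and the YAE1 libraries were highest. MITF relative to NGFR was 0.739 and 0.889 with ABCE1 guides, 0.982 and 1.04 with YAE1 guides, and 0.657 and 0.577 in the controls, in the same order. SOX10 relative to AXL was 1.73 and 1.64 with ABCE1 guides, 2.47 and 2.81 with YAE1 guides, and 2.27 and 1.98 in the controls. Here the ABCE1 libraries were below the controls and the YAE1 libraries above them. MITF relative to SOX10 was 0.175 and 0.217 with ABCE1 guides, 0.159 and 0.153 with YAE1 guides, and 0.122 and 0.135 in the controls, highest with ABCE1 guides. A ratio shows that 2 genes changed unequally and not which of them changed, and no test was run on these ratios.

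Profiles of the 5 tested members were compared by the Euclidean distance between their 6 log2 values, each set relative to the control mean. AXL and NGFR were closest, at 0.254, and 1.46% of all genes tested lay nearer to NGFR and 4.06% nearer to AXL. DCT was nearest to MITF among members, at 1.57, but 17.7% of all genes lay nearer to DCT. The nearest member to MITF was AXL, at 0.872, above the median distance of 0.842 from MITF to all genes. For SOX10 the nearest was also AXL, at 0.664, with 41.8% of all genes nearer. These distances describe 6 libraries in 3 groups and have no test.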

How the data were processed

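Strand-specific libraries made from 1 µg of RNA were read as 150 bp pairs, per the labels' protocols. The authors deposited 1 table of FPKM values per gene and library, with Ensembl identifiers and no symbols. GRCh37 is named in the submitters' processing notes, while the aligner, counter, annotation release and use of strand in counting are each not given in the sources used. Without strand, overlapping genes cannot be told apart. The labels' organism field reads mouse, against a human cell type field and human identifiers, and the second library of each knockout has a genotype label ending in 2, so groups follow the titles. The reference annotation is of mouse and matched 0 of 62492 identifiers. Symbols therefore come from the rule that chose the 10 genes, and gene positions, sequences, the targeted genes, wider pathway lists and markers of other cell types were not analysed here. Genes beyond the members are not named for the same reason. Members and lists were chosen with earlier results of these data known.

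Low FPKM values are multiples of 1 step per gene and library, which gave fragment numbers in steps of 0.5 for 38267 of 38269 genes above 0 (tolerance 2e-05 steps). They summed to at least 99.4% of the derived totals, but a multiple shared by all 6 libraries of a gene cannot be seen. Genes kept had a median of 534 fragments per library. The main test was limma 3.58.1 (R 4.3.3) on log2(FPKM + 1) (1 mean per group, all 6 libraries, eBayes with a trend, Benjamini-Hochberg adjustment, threshold 0.05) over genes averaging 1 FPKM or more. Residual degrees of freedom numbered 3, and moderation added 3.62. An exact permutation test of 2 against 2 libraries cannot reach 0.05 and was not used. Alternatives were other pseudocounts, filters, scalings and variance models, voom on fragment numbers, a replicate block and each library left out. Scripts were tested on simulated data. Unlike the plan, no gene was named by likeness beyond the members.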

Additional observations from a re-analysis of the deposited data

Results flagged for a closer look

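SOX10 changed differently with the 2 sets of guides, with a direct log2 difference, YAE1 minus ABCE1, of 0.41 ± 0.05 (SE, limma adjusted p = 0.0036). Both YAE1 libraries (89.6 and 90.8 FPKM) were above both ABCE1 libraries (70.7 and 64.8 FPKM). AXL also differed between them, by -0.23 ± 0.07 (SE, limma adjusted p = 0.0499), with 36.3 and 32.4 FPKM in the YAE1 libraries and 40.9 and 39.6 FPKM in the ABCE1 libraries. The SOX10 difference kept its call in all 16 alternatives, while that of AXL was lost in 12 of 16. Among the settings that lost the AXL call were a pseudocount of 0.1 (limma adjusted p = 0.052) and no filter (limma adjusted p = 0.17). Voom on fragment numbers kept the AXL call (voom adjusted p = 0.012). What lies behind these differences was not tested. With 2 libraries a group, outlying samples were not looked for.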

How the results depend on the processing

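Of 237 values of single members under an alternative, 210 kept their direction and side of the threshold. Another 20 lost a call, 2 gained a call and 5 changed sign. Several alternatives, such as the replicate block, cannot move a change and alter only its p-value, so these are not independent checks. MITF and DCT against control kept their calls throughout in both knockouts, as did SOX10 between the knockouts. DCT could not be fitted with a mean of at least 5 FPKM. There, 1 member (MITF) was higher with ABCE1 guides against 2, because DCT was not tested. Voom with no filter, which was chosen after seeing the data, tested all 10 members. It called 5 higher with ABCE1 guides, against 17.8% of all genes, and 5 higher with YAE1 guides, against 14.4%. It called 2 lower with YAE1 than with ABCE1 guides, against 7.18%. Voom over only the 12578 genes averaging 1 FPKM or more, which include 5 of the 10 members, called larger shares. There 4987 genes were higher with ABCE1 guides, 4669 higher with YAE1 guides, and 2786 lower with YAE1 than with ABCE1 guides. The single member lower with ABCE1 guides became 0 with no filter and with quantile normalization. Of members lower with YAE1 guides against control there was 1 after centring on the median gene, and 0 to 1 with single libraries left out. The 1 member lower with YAE1 than with ABCE1 guides became 0 with a pseudocount of 0.1, no filter, centring, quantile normalization, only the 4 libraries compared, eBayes without a trend and the replicate block, and 0 to 1 with single libraries left out. Leaving out single libraries gave 2 members higher with ABCE1 guides, 0 to 1 lower, 2 to 3 higher with YAE1 guides, and 1 higher with YAE1 than with ABCE1 guides. NGFR with ABCE1 guides changed sign after centring (-0.12) and quantile normalization (-0.0735), and ranged from -0.11 to 0.15 with single libraries left out. MITF between the knockouts ranged from -0.0005 to 0.17 in the same way. Replicate differences hardly correlated between groups (correlation -0.053 to -0.00926), which cannot tell whether libraries were handled in pairs. The replicate block changed no call besides that of AXL between the knockouts. The causes were not tested. Depth limits the genes under 1 FPKM, TYR most, with 0 to 2.5 fragments per library.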
